A study of Mus musculus with 6 samples.

Results

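Neurexins, neuroligins and cerebellins are adhesion and secreted proteins that join the presynaptic to the postsynaptic side of a synapse. The 9 genes described here, Nrxn2, Nrxn3, Nlgn1, Nlgn2, Nlgn3, Cbln1, Cbln2, Cbln4 and Lrrtm1, were taken by symbol from the 24513 genes of the count tables. All 9 passed the filter on low counts, as did 15894 genes in all. The rule gives them by symbol and uses no measured value. The genes were, however, chosen with earlier results of these data known, so counts over the 9 are not independent support. Lrrtm1 belongs to another family than the rest, and its relatives Lrrtm2, Lrrtm3 and Lrrtm4 and the cerebellin gene Cbln3 are counted among the partner genes.

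Hypothalamus, the brain region that controls feeding, temperature and pituitary hormone release, was taken for RNA sequencing from 3 NS-DADm mice and 3 wild-type (WT) mice. All were of the C57BL/6 strain and 3 to 4 months old, and each library held the RNA of 1 mouse. As known for the line and not from the labels, NS-DADm mice are mutated in both NCOR1 and SMRT, in the deacetylase-activating domain of these corepressors. The domain binds and activates the histone deacetylase HDAC3. The mutations are in the germ line, so every cell type of the sampled tissue carries them. The comparison asks how transcript levels in hypothalamus differ when this domain is mutated.

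Neurexins sit in the presynaptic membrane and bind partners across the synaptic cleft. Neuroligins and the leucine-rich repeat protein LRRTM1 are postsynaptic partners, and cerebellins are secreted proteins of the C1q family that bridge neurexins to delta-type glutamate receptors. NLGN1 is best known from excitatory and NLGN2 from inhibitory synapses, whereas NLGN3 is found at both. In thalamus, the region above hypothalamus, LRRTM1 is known from excitatory synapses.

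Lrrtm1 was lower in NS-DADm hypothalamus by 26.7%, and the other 8 genes did not pass the test. Those 8 genes had log2 fold changes between -0.089 and 0.069, and their libraries overlapped between the groups. A gene is called here at a Benjamini-Hochberg (BH) adjusted p under 0.05 in the quasi-likelihood test of edgeR over all 15894 genes. By this rule 0.654% of all tested genes were called in either direction, 0.573% were called lower and 0.0818% higher. Of the 9 genes 1 was called, lower. The median log2 fold change was -0.027 over the 9 genes and 0.004 over all tested genes.

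**Figure D1:**
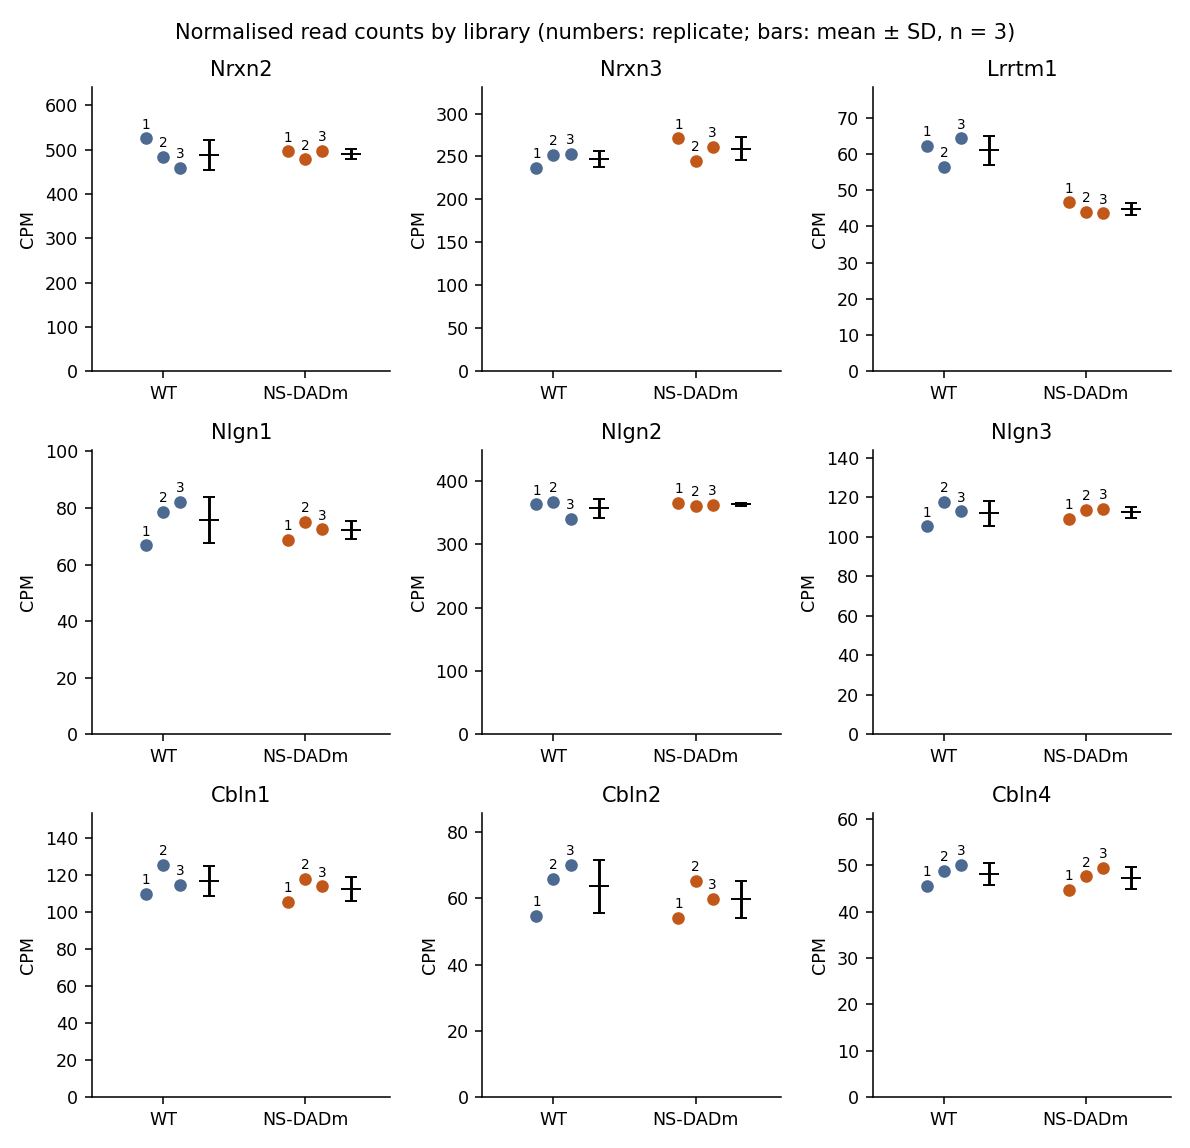
Normalised read counts (CPM, reads per 1e6 after TMM scaling) of the 9 genes in each of 3 WT and 3 NS-DADm libraries; each panel has its own axis from 0, numbers are replicates, and bars are mean ± SD. Lrrtm1 lies between 56.4 and 64.3 CPM in WT and between 43.6 and 46.6 CPM in NS-DADm libraries, and the groups overlap in the other 8 panels.

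Lrrtm1 lies on chromosome 6 (77242689 to 77257791, plus strand, GRCm38), within the span of the alpha-catenin gene Ctnna2, which is read from the opposite strand. Lrrtm1 is the one called gene of the 9, so the 250 bases before its RefSeq start, chr6:77242227-77242476 on the plus strand of GRCm38.p6, are shown 5′ to 3′.
Lrrtm1 upstream window: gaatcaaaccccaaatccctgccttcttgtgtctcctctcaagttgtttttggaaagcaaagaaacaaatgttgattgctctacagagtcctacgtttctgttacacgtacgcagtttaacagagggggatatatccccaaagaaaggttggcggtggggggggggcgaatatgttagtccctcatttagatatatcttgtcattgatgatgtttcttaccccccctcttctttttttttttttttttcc
No base is in capitals, because the motif searched, the nuclear receptor half-site AGGTCA on either strand, has no match in this window. The same motif occurs in 14.0% of the 32851 RefSeq windows of this length. It has no match in any of the 8 windows searched, which belong to Lrrtm1, Nrxn3, Nlgn1, Nlgn2 and Cbln4.

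Lrrtm1 stood at 62.3, 56.4 and 64.3 CPM in WT libraries 1, 2 and 3 and at 46.6, 44.0 and 43.6 CPM in NS-DADm libraries 1, 2 and 3; values of other genes are given in the same order. Every NS-DADm library was below every WT library, as in 8.93% of all tested genes. The group means were 61.0 ± 4.11 and 44.7 ± 1.66 CPM (SD, n = 3 each), a log2 fold change of -0.45 ± 0.062 SE with a 95% interval of -0.58 to -0.31 (edgeR, BH adjusted p = 0.0081). These levels rest on 1544 to 1705 reads per WT library and 1140 to 1215 per NS-DADm library. By unadjusted p, Lrrtm1 was number 14 of the 15894 genes.

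The call of Lrrtm1 depended on single libraries, while its direction did not. Without WT 3 its log2 fold change was -0.41 (edgeR, BH adjusted p = 0.054), without NS-DADm 2 it was -0.44 (edgeR, BH adjusted p = 0.099), and without NS-DADm 3 it was -0.43 (edgeR, BH adjusted p = 0.102). It was called without WT 1, WT 2 or NS-DADm 1, with log2 fold changes of -0.43, -0.50 and -0.48. Against a minimum fold of 1.2 it was not called (edgeR, BH adjusted p = 0.312).

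Ctnna2, the gene that contains Lrrtm1, has no annotated exon base in common with it. The strand setting of the counting is not given in the sources used here. Reads from unspliced Ctnna2 RNA and from Lrrtm1 therefore cannot be told apart. Ctnna2, whose product links cadherins to the actin skeleton in neurons, stood at 156, 156 and 159.9 CPM in the WT libraries and at 149, 144 and 145 CPM in the NS-DADm ones. These libraries did not overlap, and the log2 fold change of -0.11 ± 0.044 SE was not past the threshold (edgeR, BH adjusted p = 0.396). There were 0.399, 0.361 and 0.402 Lrrtm1 reads per Ctnna2 read in WT and 0.313, 0.305 and 0.300 in NS-DADm libraries, so the ratio to the containing gene also did not overlap between the groups.

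The genes whose pattern over the 6 libraries was most like that of Lrrtm1 were Mef2a, Mgll and Zfp804a. Likeness was the root mean square difference of centred log2 CPM, and it was 0.050, 0.051 and 0.052 for these genes against a median of 0.256 over all others. Mef2a, a transcription factor gene, stood at 175, 157 and 182 CPM in the WT libraries and at 131, 113 and 125 CPM in the NS-DADm ones. Mgll, which encodes the enzyme that breaks down the endocannabinoid 2-arachidonoylglycerol, stood at 80.8, 65.6 and 76.7 CPM in the WT libraries and at 54.8, 52.6 and 52.0 CPM in the NS-DADm ones. Zfp804a, a zinc-finger gene, had group means of 28.1 ± 2.39 and 19.97 ± 1.49 CPM (SD, n = 3 each). All these genes, like Lrrtm1, had WT 2 as their lowest WT library. Their choice by likeness over the same 6 libraries favours both this order and their lower NS-DADm values, so neither is independent support.

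Neither neurexin gene passed the test. Nrxn2 stood at 525, 483 and 458 CPM in the WT libraries and at 496, 478 and 497 CPM in the NS-DADm ones. The NS-DADm libraries lay within the range of the WT libraries. Its log2 fold change was 0.0047 with a 95% interval of -0.11 to 0.12 (edgeR, BH adjusted p = 0.989). Nrxn2 shares 682 exon bases with Slc22a12 on the opposite strand, which had 17 to 25 reads per library. Nrxn3 stood at 236, 252 and 253 CPM in the WT libraries and at 271, 245 and 262 CPM in the NS-DADm ones. NS-DADm 2 lay inside the WT range and the other two above it, and the log2 fold change was 0.069 with a 95% interval of -0.043 to 0.18 (edgeR, BH adjusted p = 0.703). By the same measure of likeness, AW209491, Nktr and Eif1b were nearest to Nrxn3, at 0.013, 0.015 and 0.016 against a median of 0.114. Each neurexin gene gives long alpha and short beta forms from separate start sites and many spliced forms. Counts per gene sum over these, so a change in the balance of forms would not be seen.

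The neuroligin genes did not pass the test either. Nlgn1 stood at 66.7, 78.6 and 82.3 CPM in the WT libraries and at 68.7, 75.1 and 72.4 CPM in the NS-DADm ones. WT 1 was the lowest of the 6 libraries and WT 3 the highest, so the WT spread enclosed all NS-DADm values. The log2 fold change was -0.074 with a 95% interval of -0.23 to 0.085 (edgeR, BH adjusted p = 0.797). The genes nearest to Nlgn1 by the same measure of likeness were Vma21, Thtpa and Tenm1, at 0.017, 0.019 and 0.019, against a median of 0.145. Tenm1 encodes a teneurin, another synaptic adhesion protein, and stood at 84.4, 98.6 and 103 CPM in the WT libraries and at 88.8, 95.5 and 89.7 CPM in the NS-DADm ones.

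Nlgn2 stood at 363, 368 and 339.7 CPM in the WT libraries and at 365, 361 and 362 CPM in the NS-DADm ones, a log2 fold change of 0.025 (edgeR, BH adjusted p = 0.913). Its 95% interval was -0.076 to 0.13. The NS-DADm libraries had an SD of 2.21 CPM and fell between the WT values. Nlgn3 stood at 105, 118 and 113 CPM in the WT libraries and at 109, 114 and 114 CPM in the NS-DADm ones. Its log2 fold change was 0.0048 with a 95% interval of -0.11 to 0.12 (edgeR, BH adjusted p = 0.988), and again the WT range enclosed the NS-DADm values. The annotation places 3823 exon bases of Nlgn3 also in Gm21986, a transcript on the same strand, and reads there cannot be told apart.

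Cbln1, Cbln2 and Cbln4 had fitted values below 0 that did not pass the test. Cbln1, first known as the cerebellin of cerebellar granule cells, stood at 110.1, 126 and 115 CPM in the WT libraries and at 106, 118 and 114 CPM in the NS-DADm ones. The groups overlapped, with a log2 fold change of -0.054 and a 95% interval of -0.19 to 0.078 (edgeR, BH adjusted p = 0.831). Cbln1 lies within the span of the noncoding gene Gm2694 on the opposite strand, which shares no exon base with it and had 68 to 99 reads per library. Cbln2 stood at 54.7, 66.0 and 70.2 CPM in the WT libraries and at 54.2, 65.3 and 59.9 CPM in the NS-DADm ones. It had the widest interval of the 9 genes, -0.30 to 0.13 around a log2 fold change of -0.089 (edgeR, BH adjusted p = 0.822), and replicate 1 was the lowest library in both groups. Cbln4 stood at 45.5, 48.8 and 50.1 CPM in the WT libraries and at 44.8, 47.6 and 49.4 CPM in the NS-DADm ones. The log2 fold change was -0.027 with a 95% interval of -0.16 to 0.11 (edgeR, BH adjusted p = 0.931), and the groups overlapped over nearly their whole range.

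**Figure D2:**
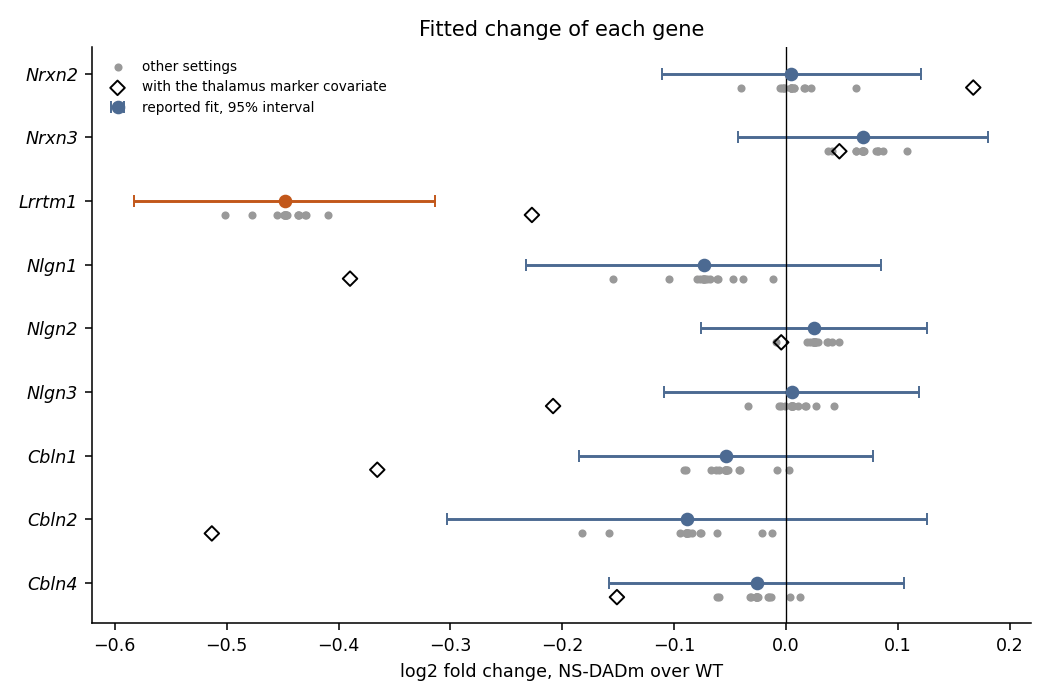
Fitted log2 fold change of NS-DADm over WT for the 9 genes with 95% intervals (large points), the values under 16 other settings (grey) and the value with the thalamus marker covariate (open diamonds). The interval of Lrrtm1, -0.58 to -0.31, lies below 0, and the intervals of the other 8 genes span 0.

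Levels can be compared between genes only per length. On the scale of CPM per kb of annotated exon, Nlgn2 was the most abundant of the 9 genes in WT hypothalamus at 61.7 ± 2.58 (SD, n = 3), followed by Cbln1 at 38.5 ± 2.67 and Nrxn2 at 35.4 ± 2.46. Cbln1 and Nrxn2 overlapped between libraries and are not ordered. Cbln2 at 21.99 ± 2.77, Lrrtm1 at 20.1 ± 1.35 and Nrxn3 at 19.6 ± 0.74 also overlapped, each with its neighbour in this order. Cbln4 at 16.6 ± 0.82, Nlgn3 at 12.1 ± 0.68 and Nlgn1 at 5.65 ± 0.61 followed without overlap. The exon length sums all annotated forms, so a gene with long forms that hypothalamus does not use is understated on this scale.

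In NS-DADm hypothalamus the order was the same except for Lrrtm1. Its level of 14.8 ± 0.55 CPM per kb (14.4 to 15.4) lay below that of Cbln4 at 16.3 ± 0.81 (15.4 to 17.0), whereas in WT Lrrtm1 (18.6 to 21.2) lay above Cbln4 (15.7 to 17.3). Among the neuroligins, Nlgn2 made up 77.7 ± 1.57% of the summed level per kb in WT and 78.2 ± 0.61% in NS-DADm, and Nlgn1 7.13 ± 0.84% and 6.69 ± 0.29% (SD, n = 3 each). Among the cerebellins, Cbln1 made up 49.96 ± 2.03% in WT and 50.1 ± 0.31% in NS-DADm. These shares overlapped between the groups and were given no test of their own.

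**Figure D3:**
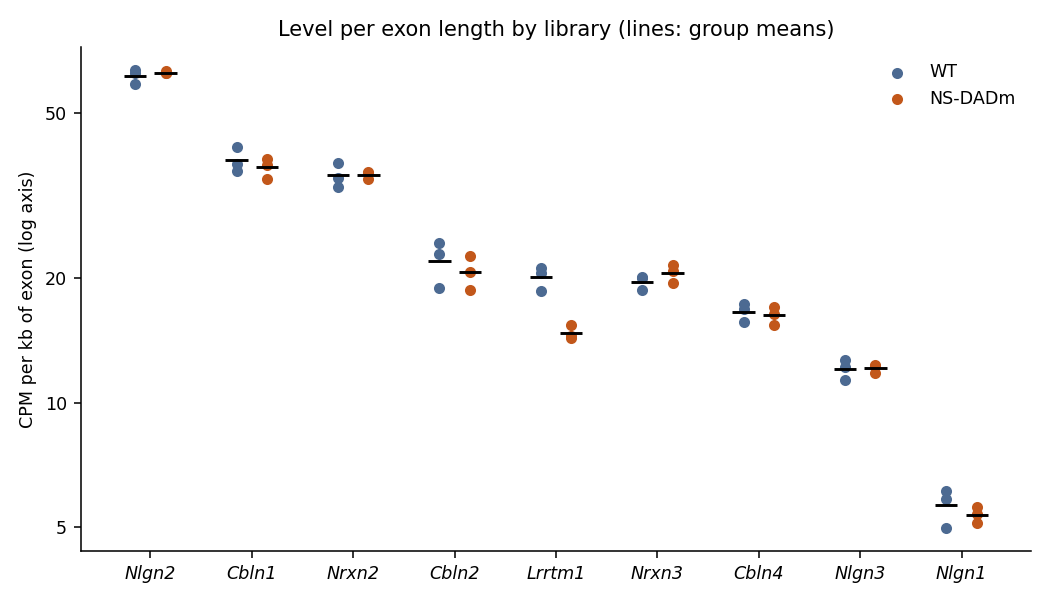
Level per exon length (CPM per kb, log axis) of the 9 genes, ordered by the WT mean, with 3 WT and 3 NS-DADm libraries as points and group means as lines. Nlgn2 is at the top and Nlgn1 at the bottom in both groups, and Lrrtm1 moves from 20.1 in WT to 14.8 in NS-DADm libraries.

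Partner and related adhesion genes were taken from 4 lists holding 55 genes of the count tables, and edgeR called 0 of them. At an unadjusted p under 0.05 there were 10, with 2 higher and 8 lower, against 10.9% of all tested genes in either direction and 6.46% lower. Limma voom called 0 and the DESeq2 Wald test called 2, C1ql1 and C1ql3. The libraries did not overlap between the groups in 11 of the 55 genes, 2 higher and 9 lower, against 16.8% of all tested genes in either direction, 7.86% higher and 8.93% lower. Over the 55 genes the log2 fold change had a median of -0.014.

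Of 20 neurexin partners, 5 had an unadjusted p under 0.05, all with values below 0. Smallest in p was C1ql3, a secreted C1q-like protein related to the cerebellins, at 35.4, 31.9 and 33.2 CPM in the WT libraries and 23.4, 29.4 and 26.9 CPM in the NS-DADm ones. Its libraries did not overlap, and its log2 fold change of -0.33 ± 0.081 SE missed the threshold (edgeR, BH adjusted p = 0.102). Nxph1, a secreted neurexin ligand of the neurexophilin family, had -0.26 ± 0.073 SE (edgeR, BH adjusted p = 0.176).

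Lrrtm2 is a close relative of Lrrtm1 that also binds neurexins. It stood at 89.0, 96.9 and 106 CPM in the WT libraries and at 84.8, 82.5 and 87.3 CPM in the NS-DADm ones. Its libraries did not overlap, but WT 1 lay only just above NS-DADm 3, and the log2 fold change of -0.20 ± 0.063 SE was not past the threshold (edgeR, BH adjusted p = 0.229). Of 17 alternative settings Lrrtm2 was called in 1, without WT 1, with a log2 fold change of -0.26 (edgeR, BH adjusted p = 0.011). Without WT 3 its log2 fold change was -0.13 (edgeR, BH adjusted p = 0.611). Lrrtm3 and Lrrtm4 had log2 fold changes of -0.037 and 0.029, with 95% intervals of -0.18 to 0.11 and -0.15 to 0.21. There were 0.701, 0.582 and 0.605 Lrrtm1 reads per Lrrtm2 read in WT and 0.550, 0.533 and 0.499 in NS-DADm libraries. The ratio did not overlap between the groups, and the difference between the changes of these genes was not tested.

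Of 9 genes listed as neuroligin partners, 1 had an unadjusted p under 0.05. Mdga1, whose product binds neuroligins and blocks their contact with neurexins, stood at 75.2, 73.5 and 71.0 CPM in the WT libraries and at 81.9, 84.1 and 76.3 CPM in the NS-DADm ones. The groups did not overlap, and the log2 fold change of 0.14 ± 0.054 SE was not past the threshold (edgeR, BH adjusted p = 0.346). Garnl3, whose link to neuroligins is not established, and the excitatory scaffold gene Dlg4 had log2 fold changes of 0.11 and -0.069. Gphn, which encodes the inhibitory scaffold gephyrin, had 0.029 with a 95% interval of -0.077 to 0.14.

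Of 6 cerebellin partners and relatives, C1ql1 had the smallest p. C1ql1, a C1q-like ligand known from climbing fibre synapses of the cerebellum, stood at 15.6, 16.6 and 16.4 CPM in the WT libraries and at 11.8, 13.8 and 10.8 CPM in the NS-DADm ones. The groups did not overlap, and its log2 fold change of -0.41 ± 0.096 SE was not past the threshold (edgeR, BH adjusted p = 0.077). Grid1, which encodes a delta-type glutamate receptor that cerebellins bind, had a log2 fold change of 0.066 with a 95% interval of -0.036 to 0.17. Cbln3, the remaining cerebellin gene, had a level of 3.17 ± 0.28 CPM in WT mice against 3.47 ± 0.56 in NS-DADm mice (SD, n = 3 each), with a log2 fold change of 0.13 and a 95% interval of -0.21 to 0.46. Neo1, a netrin receptor family gene, had -0.14 ± 0.073 SE. Among 20 other synaptic adhesion genes 3 had an unadjusted p under 0.05, and the smallest in p were Lrfn5, Ptprd and Ntrk3 with log2 fold changes of -0.13, -0.12 and 0.14.

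**Figure D4:**
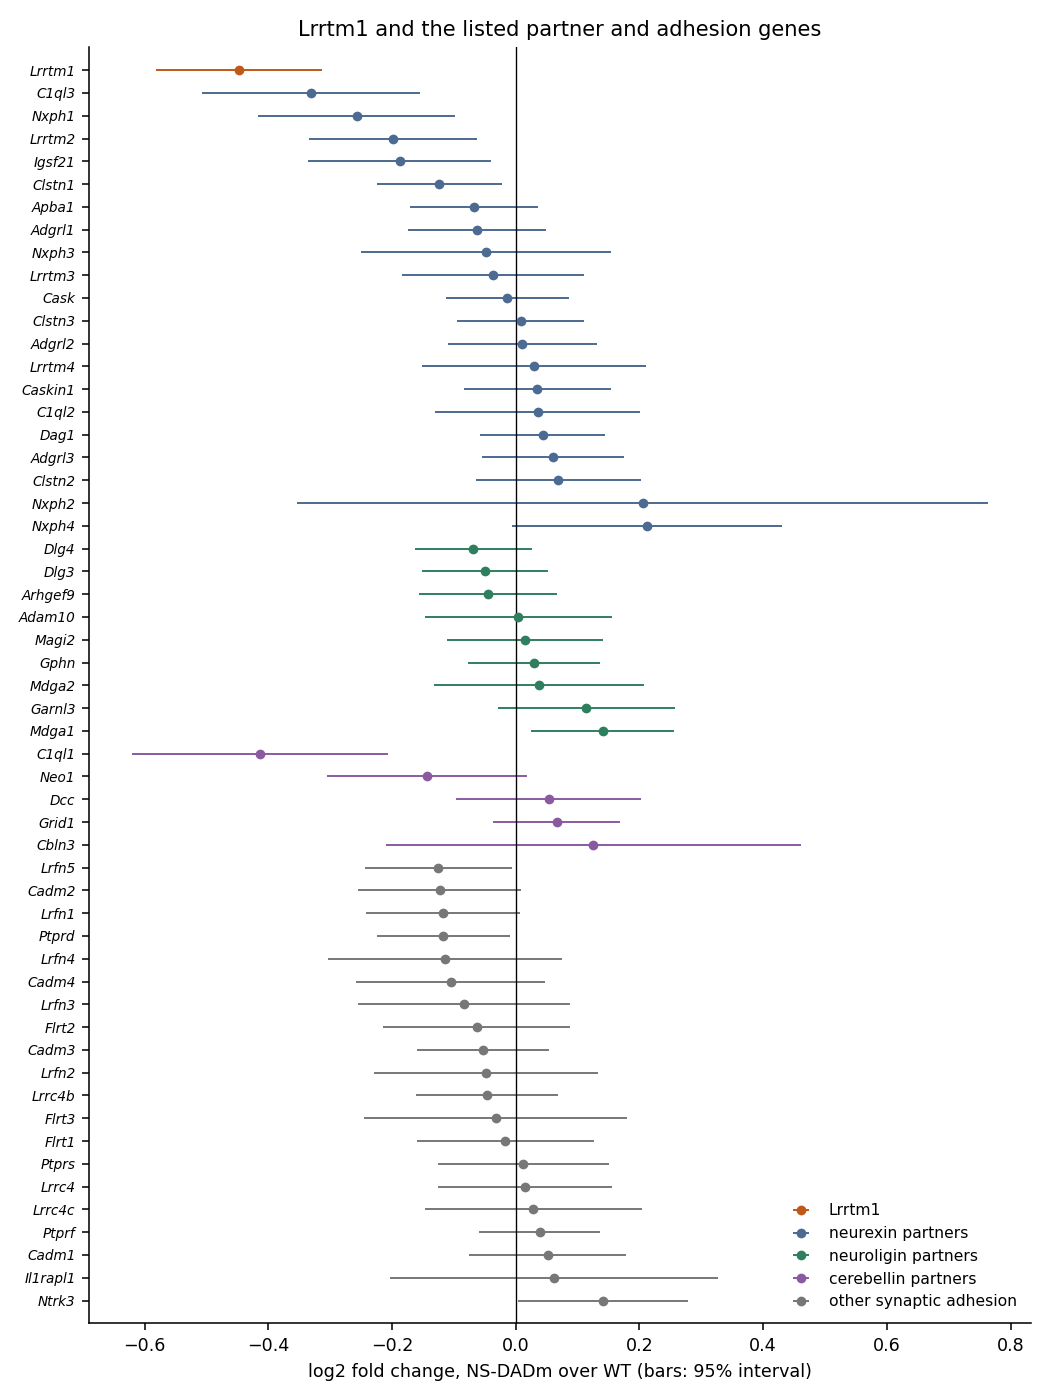
Log2 fold change of NS-DADm over WT with 95% intervals for Lrrtm1 and 54 of the partner and adhesion genes, coloured by list and ordered by value within a list. C1ql1 at -0.41 and C1ql3 at -0.33 are nearest to Lrrtm1 at -0.45, and neither passes the threshold over all genes.

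Markers of thalamus moved with Lrrtm1. The list of 14 thalamus markers was chosen with earlier results of these data known, so its counts are not independent support. Of the 14, 5 were called, all lower, among them Lef1, Rgs16 and Plekhg1, against 0.573% of all tested genes called lower. All 14 markers had fitted values below 0 in NS-DADm mice, with a median log2 fold change of -1.15. Their summed level was 1427, 1023 and 1212 CPM in the WT libraries 1 to 3 and 799, 764 and 831 CPM in the NS-DADm libraries, and no marker was at 0 in any library. WT 2 was the lowest WT library for this sum and for Lrrtm1, but the sum was highest in WT 1 and Lrrtm1 in WT 3. Within NS-DADm the sum was highest in library 3, where Lrrtm1 was lowest. In bulk tissue, fewer cells of a type and less RNA per cell cannot be told apart. Lrrtm1 is itself known to be expressed in thalamus.

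With the mean log2 CPM of these markers as a covariate, Lrrtm1 had a log2 fold change of -0.23 ± 0.14 SE (edgeR, BH adjusted p = 0.639). None of the 9 genes was called in that fit by edgeR, and 3 had an unadjusted p under 0.05. These were Cbln1 at -0.37 ± 0.12 SE (edgeR, BH adjusted p = 0.358), Cbln2 at -0.51 ± 0.18 SE and Nlgn1 at -0.39 ± 0.15 SE, against -0.054, -0.089 and -0.074 without it. Nrxn2 had 0.17, Nrxn3 0.047, Nlgn2 -0.0045, Nlgn3 -0.21 and Cbln4 -0.15 with the covariate, none with an unadjusted p under 0.05. The covariate was 6.11, 5.35 and 5.80 in WT and 4.74, 4.41 and 4.70 in NS-DADm libraries, so it did not overlap between the groups and is partly confounded with them. Over all genes 9 were called in that fit, and 0 of them were among the 104 called without it.

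Other markers gave context for the same libraries. The neuron markers summed to 5635, 5639 and 5819.9 CPM in the WT libraries and 5339, 5346 and 5409 CPM in the NS-DADm ones, without overlap, and 5 of 7 had fitted values below 0. Hypothalamic markers, all 10 of them detected in every library, summed to 556 to 611 CPM in WT and 546 to 679 CPM in NS-DADm. Of these markers 9 of 10 had fitted values above 0, with a median log2 fold change of 0.18, and 3 of them had an unadjusted p under 0.05, all higher. Mammillary markers had 4 of 4 fitted values above 0, with a median of 0.16. Inhibitory neuron markers summed to 1140 to 1216 and 1190 to 1251 CPM. Anterior pituitary markers summed to 39.7 to 111 CPM in WT and to 200.2, 2015 and 199.8 CPM in NS-DADm 1, 2 and 3. Other lists had sums that did not overlap between the groups. Microglia markers summed to 155 to 159.8 CPM in WT libraries against 134 to 141 in NS-DADm (5 of 5 fitted values below 0), and endothelial markers to 81.1 to 102 and 75.1 to 78.7 CPM (3 of 4 below 0). Cortex and hippocampus markers summed to 26.8 to 47.4 and 15.5 to 21.4 CPM (2 of 5 tested below 0). That difference came mainly from Slc17a7, at 34.0, 14.5 and 20.2 CPM in WT and 7.08, 1.81 and 5.78 CPM in NS-DADm libraries. The median log2 fold change of that list was 0.00018. Choroid plexus markers summed to 10.7 to 11.4 and 12.5 to 14.1 CPM (4 of 4 above 0). Most of this sum was Kl, with a WT mean of 9.70 CPM. Ttr, Folr1 and Kcne2 had WT means of only 0.49, 0.65 and 0.24 CPM. Lrrtm1 in NS-DADm 2, the library with the highest pituitary sum, lay between the values of the other NS-DADm libraries. The pituitary sum was also higher in every NS-DADm library than in every WT library, and any link to Lrrtm1 was not tested. Over the 14 marker lists other than thalamus edgeR called 0 of 73 genes, DESeq2 called 5 and limma voom 0. In edgeR 26 of the 73, or 35.6%, had an unadjusted p under 0.05, against 10.9% of all tested genes. The part of these cell types and regions in the Lrrtm1 result was not tested beyond the thalamus covariate fit.

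**Figure D5:**
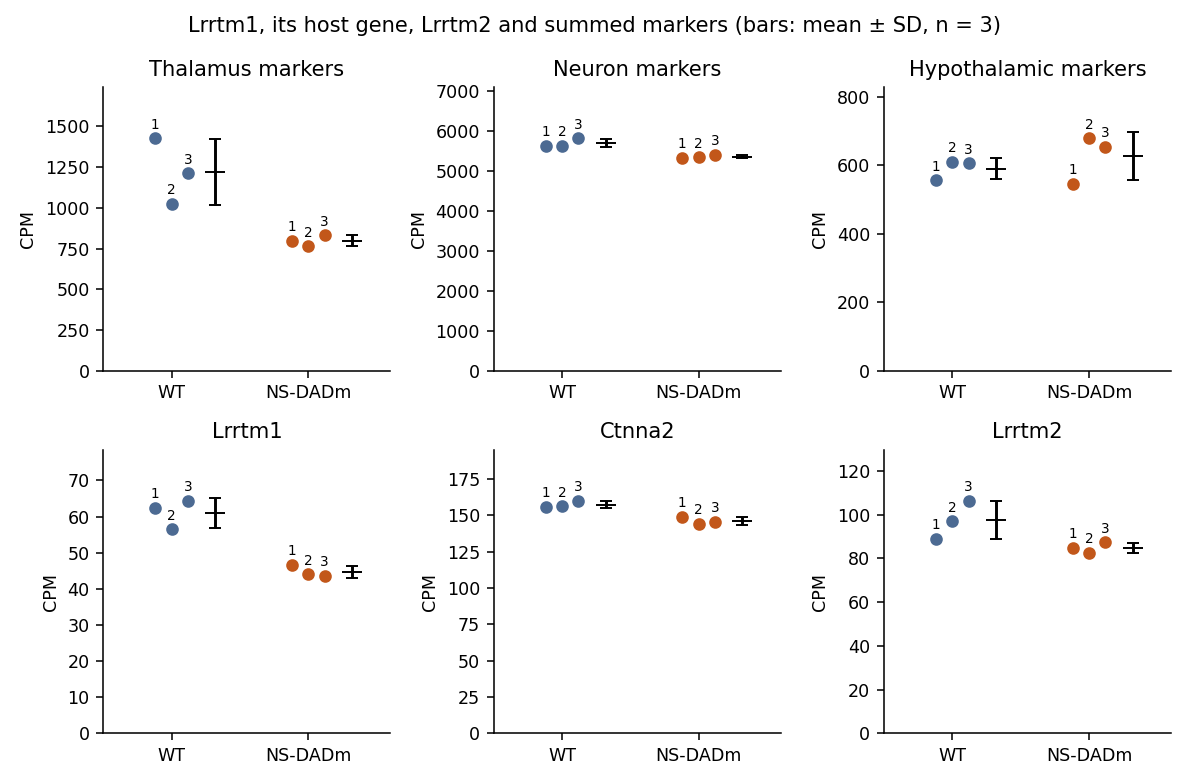
Summed CPM of the thalamus, neuron and hypothalamic marker lists (top) and CPM of Lrrtm1, Ctnna2 and Lrrtm2 (bottom) in 3 WT and 3 NS-DADm libraries, each axis from 0; numbers are replicates and bars are mean ± SD. Thalamus markers sum to 1023 to 1427 CPM in WT and 764 to 831 CPM in NS-DADm libraries, and the hypothalamic sums overlap.

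Library 1 of the WT group stood apart for several of the 9 genes. It was the lowest WT library for Nrxn3, Nlgn1, Nlgn3, Cbln1, Cbln2 and Cbln4 and the highest for Nrxn2, and it held the highest thalamus marker sum of all 6. NS-DADm 1 was likewise the lowest of its group for Nlgn1, Nlgn3, Cbln1, Cbln2 and Cbln4. Without WT 1 the log2 fold changes of the 9 genes had a median of -0.062, and Lrrtm1 was the one called.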

How the data were processed

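Total RNA of hypothalamus was sequenced from 6 mice, 3 per group. The authors aligned reads to mm10 with TopHat2 2.0.9 and counted them with HTSeq, per the submitters' processing notes, and deposited raw read counts per gene symbol. Annotation, strand setting and kit: not given in the sources used here. Libraries held 24173076 to 27606309 reads on genes. The 5 rows of unassigned reads were left out. They include alignments that were not unique, 14.3 to 16.5% of all entries.

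Low counts were removed by filterByExpr, TMM factors were applied, and genes were tested with the robust quasi-likelihood test of edgeR 4.0.16 in R 4.3.3, without covariates, and p-values were BH adjusted over 15894 genes. Standard errors and 95% intervals were derived from the F statistic. DESeq2 1.42.0 and limma 3.58.1 (voom) were alternatives, as were other scalings, filters, a minimum fold, a replicate block, a thalamus marker covariate and each library left out. The code was tested on simulated data.

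The 9 genes and all gene lists were chosen with earlier results of these data known. Named partner genes are the 3 with the smallest p in each list, and others named were chosen after their values were seen. A listed partner gene is counted but not reported here by name. Likeness was computed for the 3 members with the smallest p. Positions and exon lengths are from GENCODE M21 and upstream windows from RefSeq (GRCm38.p6, 5 of the 9 genes). By BLAST 2.17.0, the best-scoring hit of each member's longest transcript in another gene of the tables had at most 74.8% identity. This identity covers the aligned bases only, and lower-scoring hits were not compared. The plots come from matplotlib 3.10.9.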

Additional observations from a re-analysis of the deposited data

How the results depend on the processing

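Under 17 alternative settings, Lrrtm1 kept its direction in all 17, with log2 fold changes of -0.50 to -0.23, and was called in 12. Of the 9 genes 0 were called against a minimum fold of 1.2 and with the thalamus marker covariate, and 0 to 1 with a library left out. The other 8 genes were called in none of the 17. The number of genes called, 104 of those tested, was 203 with no count filter, 282 with the DESeq2 Wald test, 8 against a minimum fold of 1.2, 9 with the thalamus marker covariate and 5 to 312 with a library left out. Leaving out WT 1 gave 312, WT 2 gave 262 and WT 3 gave 10, and leaving out NS-DADm 2 or 3 gave 5 and 8. Of the 55 partner genes, 0 in the reported fit, edgeR called 2 with no count filter, DESeq2 called 2, and 0 to 3 were called with a library left out, the 3 without WT 1. The causes were not tested. With the replicate number as a block, 409 genes and 3 partner genes (C1ql1, C1ql3 and Nxph1) were called, and the same 1 of the 9 genes, Lrrtm1 (log2 fold change -0.45; edgeR, BH adjusted p = 0.00039). Same-numbered libraries had correlations of 0.27, 0.16 and 0.0082 across genes in their deviations from the group means. WT 3 had 0.165 with NS-DADm 2, whereas WT 1 had -0.23 with NS-DADm 2 and WT 2 had -0.22 with NS-DADm 1. The labels do not say that same-numbered samples belong together, and these values cannot settle whether they share a batch. At the present depth and spread, the 95% intervals of the 8 genes not called still allow log2 changes of up to -0.30 and 0.18.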
